A study of Mus musculus with 24 samples.

Results

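The testis and the spleen of the same 4 control mice were compared, with 1 bead array per tissue and animal, so that 8 of the series' 24 arrays were used. The series asked how a mutation of Smc6, a subunit of the SMC5/6 complex, changes gene expression in testis, spleen and brain. Testis and spleen samples were chosen by their titles and paired by the mouse identifier. The mice were males of 12 weeks on a mixed C57BL/6J-129ola-Fvb background, and whole organs rather than sorted cells were used. All 4 were labelled as wild type, but their identifiers carry +/+ for replicates 1 and 2 and +/- for replicates 3 and 4, and the series' design text mentions heterozygous controls. Replicates 3 and 4 are therefore called the +/- animals here, as labelled. The nature of the Smc6 mutation was not given in the labels. Arrays of 4 homozygous Smc6 mutants of the same age, testis and spleen each, and of 4 control brains at 19 weeks served for reference only.

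The adult testis consists mainly of germ cells on their way from spermatogonia through meiosis to spermatids, which are supported by Sertoli cells inside the tubules and by hormone-producing Leydig cells between them. Spermatids repackage their DNA with transition proteins and protamines and build a flagellum and an acrosome, and many genes for this work are transcribed almost nowhere else in the body. The spleen filters blood, holds B and T cells in its white pulp, removes old red cells in its red pulp, and in mice also forms new red cells.

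Of the 25697 probes on the array, 14327 were detected on at least 4 of the 8 arrays and were tested, and they stand for 10055 named genes. Between 12892 and 13128 probes were detected per control testis and between 12049 and 12856 per control spleen, at a detection p under 0.05. Levels are normalized log2 intensities, on which 1 unit is a doubling, and background lies a little above 4. Differences are testis minus spleen with their standard error (SE). Over the tested probes the 4 testes correlated with each other at 0.993 to 0.994 and the 4 spleens at 0.980 to 0.990, while a testis and a spleen correlated at only 0.360 to 0.391.

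More probes differed between the organs than did not. At an adjusted p under 0.05 in limma's paired fit, 5473 probes were higher in testis (38.2%) and 6697 were lower (46.7%). With so many small differences past that line, a stricter call was used throughout, which asks whether the difference is larger than 2-fold (limma's treat function, adjusted p under 0.05). By this call 3142 probes were higher in testis (21.9%) and 3530 were lower (24.6%). Counted by the brightest tested probe of each gene, 2192 genes were higher (21.8%) and 2722 were lower (27.1%), and these shares are the background for the gene lists. Beyond 16-fold, testis led with 828 probes higher against 396 lower. At the other end, 1999 probes had a 95% interval that lay wholly within 1.5-fold. The median difference over all genes was -0.27, and a list's median should be read against it.

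**Figure D1:**
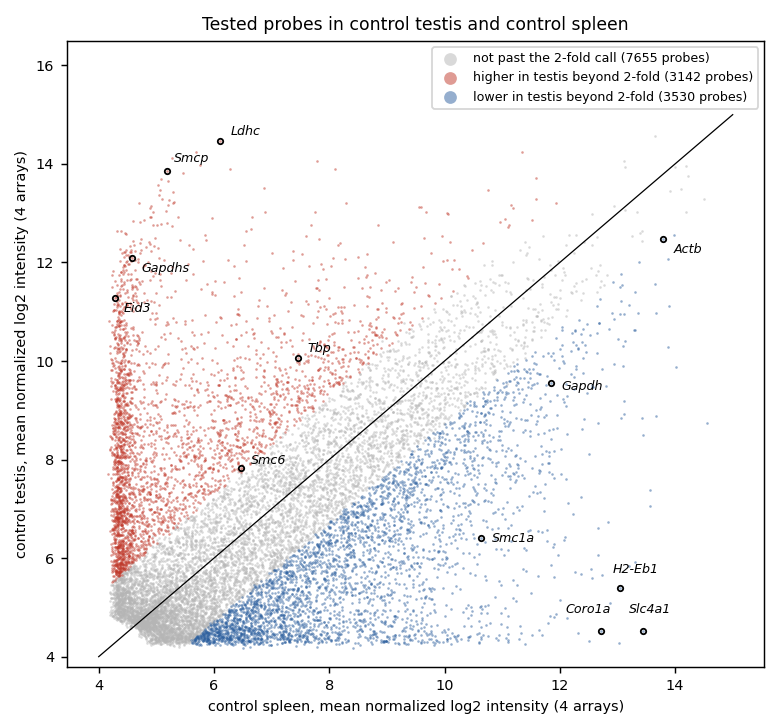
Mean normalized log2 intensity of each tested probe in 4 control testes (vertical axis) against 4 control spleens (horizontal axis), where 1 point is 1 probe and the line marks equal levels. The 3142 probes called higher in testis (red) include 1159 that were not detected in any spleen, along the left edge, and 1317 that were detected in all 4, while of the 3530 called lower (blue) 658 were detected in no testis and 2388 in all 4, and circled genes carry their names.

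Detection alone also separated the organs, but here the larger number was on the side of testis. Probes seen in all 4 testes and in no spleen numbered 1688 (6.57% of the array, 1349 named genes), against 1113 seen in all 4 spleens and in no testis (4.33%, 925 named genes). Of the testis-only probes 1014 (60.1%) were not detected in any control brain either, compared with 429 (38.5%) of the spleen-only probes and 40.5% of all probes on the array. The spleen-only share lies close to that of the whole array. The latter mixes 3.59% among probes detected on all 8 arrays with 77.6% among probes detected on none of the 8. Where a gene was not above background on any array of a tissue, the fold is given below as a bound, "at least N-fold". That bound sets the mean of the bright tissue against the higher of the gene's own signal and the lowest signal of a detected probe on each dim array, and any difference printed for such a gene is that of the measured levels. Some genes given below with a difference were above background on only part of the dim arrays. Akap4, Cypt3, Defb19, Gapdhs, Gm20815, Izumo1 and Tsga8 were detected in 1 of 4 spleens, Cldn11, Cox8c, Ddx4, Odf1, Smcp and Tdrd6 in 2, and H2al1e, Ldhc, Tssk6 and Ybx2 in 3. Cd79b was detected in 1 of 4 testes, Cela1 and H2-Aa in 2 and Gata1 in 3. Their differences are set in part against background.

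Smcp had the highest measured difference of the genes tested. This gene, which encodes a cysteine-rich protein of the mitochondrial sheath around the sperm midpiece, had levels of 13.75, 13.89, 13.93 and 13.81 in the testes, against 4.61, 4.63, 5.89 and 5.59 in the spleens. The testes lay close together, the groups were far apart, and among the spleens replicates 3 and 4 lay above replicates 1 and 2. The difference was 8.67 (SE 0.20, adjusted p 1.2e-10), with Smcp detected in 2 of the 4 spleens. Odf1, which builds the outer dense fibres of the tail, differed by 8.45 (SE 0.22), and Ybx2, which stores messenger RNA in round spermatids, by 8.53 (SE 0.16). Tcp10a was at 12.50, 12.67, 12.77 and 12.61 in the testes and not above background in any spleen, at 4.20, 4.30, 4.38 and 4.38, which makes it at least 242.5-fold higher. Tuba3a, an alpha-tubulin of the testis, was at least 236.2-fold higher. Ldhc, the sperm lactate dehydrogenase, was at 14.47 on all 4 testis arrays and differed by 8.37 (SE 0.33). The identical values come from quantile normalization, which gives probes of the same rank the same level on every array.

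Known genes were grouped into 34 lists with 799 entries, of which 674 had a named probe and 538 were tested. A gene at background in 1 organ passed the detection filter only through the other, so the counts below describe the tested members and do not stand for those that were not. Of 11 genes of spermatid chromatin 8 were tested, and all 8 were higher in testis beyond 2-fold, with a median difference of 5.84. Protamine 1 (Prm1), which replaces histones in the sperm head, was at 14.07, 13.96, 14.12 and 14.07 in the testes and at 6.14, 7.13, 8.74 and 9.14 in the spleens. It was thus also detected in spleen, and lay highest there in replicates 3 and 4. Transition protein 1 (Tnp1) differed by 7.54, and the testis bromodomain protein Brdt was at least 58.51-fold higher.

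The same held for the structures of the sperm cell. Of 17 tested genes of the tail and its axoneme 16 were higher beyond 2-fold (median difference 7.01), and of 18 genes of the acrosome and of fertilization all 18 were (median 6.00). Akap4, the main scaffold of the fibrous sheath, stood at 11.52, 11.50, 11.37 and 11.00 in the testes, against 4.35, 4.89, 4.44 and 4.69 in the spleens. Its gene lies on the X chromosome, and the difference was 6.75 (SE 0.15, adjusted p 1.02e-10). Acrv1, a protein of the acrosomal matrix, was at 11.80, 11.90, 11.85 and 11.79 in the testes and not above background in the spleens, at 4.22, 4.25, 4.19 and 4.37, which is at least 139.1-fold higher. Izumo1, the sperm protein that binds the egg, differed by 5.89.

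Among sperm ion channels and kinases 12 of 13 were higher (median 5.16). Tssk6, a spermatid kinase, differed by 7.82, and Catsper1, a pore subunit of the sperm calcium channel, was at least 16.41-fold higher. The exception was Hvcn1, a proton channel known from human sperm and from B cells and phagocytes. It was not above background in the testes, at 4.41, 4.29, 4.52 and 4.37, and reached 10.97, 10.40, 10.82 and 10.36 in the spleens, so it was at least 64.19-fold lower in testis.

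Meiotic genes were higher in testis too, but by less. Of 32 genes of meiotic prophase 15 were tested, and 12 of these were higher beyond 2-fold and none was lower (median 2.35). Stag3, a cohesin subunit of meiotic chromosomes, was at 11.40, 11.29, 11.20 and 11.32 in the testes and at 4.85, 4.81, 5.49 and 5.86 in the spleens, a difference of 6.05 (SE 0.18). Spo11, which cuts DNA to start recombination, differed by 4.55, while Sycp1, of the synaptonemal complex, was at least 2.33-fold higher. Msh5 (0.31) and Mnd1 (0.25) did not pass the 2-fold test.

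All 11 tested of 22 genes of the piRNA pathway, which silences transposons in germ cells, were higher (median 4.29), and so were all 13 transcription and RNA factors of the germ line (median 4.27). Tdrd6, a Tudor protein of the chromatoid body, differed by 8.07, Piwil1 (MIWI) by 6.10 and Dazl, a germ-cell translation factor, was at least 16.44-fold higher. Rfx2, a transcription factor needed for spermatid development, was at 11.86, 11.87, 11.90 and 11.82 in the testes and was also expressed in the spleens, at 7.45, 7.94, 7.38 and 8.77. The groups did not overlap, and the difference was 3.98 (SE 0.21, adjusted p 2.74e-07).

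Genes of spermatogonia, the rare stem and progenitor cells, had the lowest median of the germ-line lists. Of 11 tested genes of 23 listed, 4 were higher (median 0.52), and the highest of these, Ddx4 (4.47) and Dazl, are also transcribed in later germ cells. Foxo1, a regulator of spermatogonial stem cells that lymphocytes use as well, was lower in testis by a difference of -3.30 (SE 0.14).

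**Figure D2:**
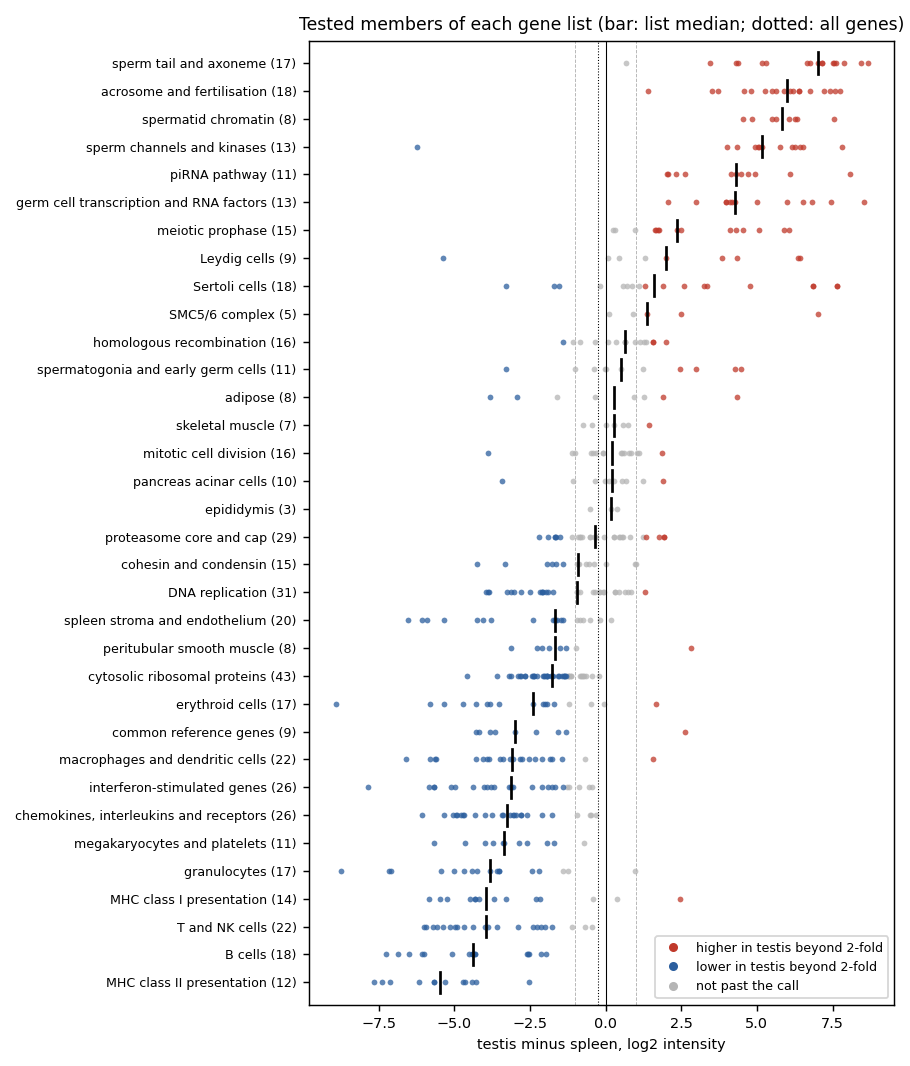
Differences (testis minus spleen, log2) of every tested gene in each list, 1 point per gene, with a bar at the list's median and a dotted line at the median of all genes. Red and blue points are genes called higher and lower in testis beyond 2-fold. Germ-cell lists lie to the right, from 0.52 for spermatogonia to 7.01 for the sperm tail, and leukocyte lists to the left, down to -5.49 for MHC class II presentation.

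The promoters of these genes were searched for short motifs, in the RefSeq window from 250 bases before to 50 bases after the first listed start (build GRCm38.p6), on both strands and without mismatch. A window was found for 8190 of the 10055 tested genes. The letters GTTGCC, an arm of the X-box that RFX factors bind, were present in 17.8% of the 1784 promoters of genes higher in testis, in 10.7% of the 2195 promoters of genes lower in testis, in 13.1% of all tested genes and in 12.7% of the 27025 windows in the table. Counting every listed start instead, the shares were 20.5% of genes higher in testis and 12.8% of genes lower in it. These shares are descriptions without a test, and a match is not a measured binding site. The following sites come from 3 named genes with high levels in testis, chosen after the matches were known; capitals mark GTTGCC or its reverse complement. Actl7b encodes an actin-like protein of spermatids, Eno4 an enolase of the sperm tail and Smc1b a cohesin of meiosis. The stretches are Actl7b at chr4:56741417-56741462 on the minus strand, Eno4 at chr19:58943367-58943412 on the plus strand and Smc1b at chr15:85132068-85132113 on the minus strand, with matches starting at -17, -38 and -136 from the start site.
Actl7b: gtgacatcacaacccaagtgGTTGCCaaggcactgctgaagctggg
Eno4: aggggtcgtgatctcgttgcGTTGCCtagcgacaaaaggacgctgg
Smc1b: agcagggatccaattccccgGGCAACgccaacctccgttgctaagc

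For the motifs in this paragraph the shares of genes higher and lower in testis lay closer together than for GTTGCC. Those of the PU.1 motif, given with the spleen genes below, lay further apart than these. The cyclic AMP response element TGACGTCA, bound by CREB and CREM, stood in 3.03% of promoters of genes higher in testis, 2.6% of genes lower and 2.99% of all tested genes. The core MYB motif AACTG was found in 41.3%, 38.8% and 39% of these sets, and the CCAAT box in 40.2%, 38.2% and 39.3%. The TATA box TATAAA stood in 8.41%, 10.1% and 8.21%. The ETS motif CCGGAAG stood in 12.7% of promoters of genes higher in testis and 14.9% of genes lower, both below the 16.8% of all tested genes.

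The somatic cells of the testis showed a mixed pattern. Of 18 Sertoli cell genes 10 were higher in testis and 3 were lower (median 1.60). Cst9, a cystatin of Sertoli cells, was at 12.13, 12.10, 11.93 and 11.95 in the testes and not above background in the spleens, at 4.39, 4.27, 4.45 and 4.37, so it was at least 159.3-fold higher. Defb19, a beta-defensin, differed by 7.66 and Cldn11, which seals the blood-testis barrier, by 6.86. Trf, which encodes transferrin, was lower in testis (-3.29), as were Gata1 and Abcb1b, none of which is particular to Sertoli cells. The call of Gata1 was lost in the +/+ animals alone (-1.41, adjusted p 0.0992), with no detection filter (adjusted p 0.0517) and with an offset of 50 (-1.01, adjusted p 1).

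Of 9 tested Leydig cell genes 5 were higher in testis, 1 was lower and 3 passed neither line (median 1.98). Insl3, the hormone of testis descent, was at 10.91, 10.65, 10.64 and 10.96 in the testes, against 4.45, 4.41, 4.33 and 4.26 in the spleens, at least 67.41-fold higher. Cyp17a1, an enzyme of androgen synthesis, was at least 64.37-fold higher. The brightest tested probe of the cholesterol carrier Star lay near background on both tissues' arrays (4.94 ± 0.31 in testis and 4.85 ± 0.33 in spleen, SD, n = 4 each). Whether that probe reports the level of Star was not analysed here. Hsd11b1, which activates glucocorticoids, was lower in testis (-5.39, SE 0.15). Among 8 genes of smooth muscle, the lineage of the peritubular cells, 6 were lower in testis and only Actg2, a smooth muscle actin, was higher (2.81, SE 0.12).

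The spleen consists mostly of blood cells, and their gene lists were mainly lower in testis. Fewer cells of a type and less RNA per cell cannot be told apart in whole organs, here and in all that follows. Slc4a1, the anion exchanger of the red cell membrane, was not above background in the testes, at 4.51, 4.55, 4.45 and 4.60, and was at 12.76, 13.75, 13.04 and 14.23 in the spleens. It was at least 449.1-fold lower in testis (adjusted p 9.99e-11). Coro1a, an actin regulator of leukocytes, was at least 272.1-fold lower.

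All 18 tested B cell genes were lower in testis (median -4.39). Cd79a, a signalling chain of the B cell receptor, was at 4.33, 4.45, 4.42 and 4.56 in the testes and at 11.29, 10.86, 10.90 and 10.76 in the spleens, at least 79.83-fold lower in testis. Its partner Cd79b differed by -7.25 (SE 0.12), and the co-activator Pou2af1 was at least 103.5-fold lower. Sums of a list, here and below, are of the deposited linear intensities, which were not normalized between arrays. The upper quartile of these was 80.71 to 106.8 on the control testis arrays and 56.59 to 73.43 on the control spleen arrays. By such sums the B cell genes in testis reached 2.19 to 3.21% of their mean level in spleen.

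T and NK cell genes followed with 19 of 22 lower (median -3.95) and a summed level in testis of 5.38 to 7.54% of spleen. Thy1, a surface protein of T cells, was at 4.55, 4.32, 4.42 and 4.31 in the testes, against 10.22, 10.66, 10.59 and 10.20 in the spleens, at least 55.1-fold lower. Cd4 differed by -1.10, which was not beyond 2-fold.

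Of 22 macrophage and dendritic cell genes 20 were lower in testis (median -3.10), and their summed level in testis was 16.7 to 20.5% of spleen. That sum was carried by few members, since only 10 to 12 of the 22 were detected per testis and Aif1 and Cst3, a cystatin, had the highest levels there (10.49 and 9.97 on average). Slc40a1 (ferroportin), with which red pulp macrophages release iron, was at 5.99, 6.02, 5.93 and 6.29 in the testes and at 12.64, 12.65, 12.58 and 12.77 in the spleens (-6.60, SE 0.11). Spic, the transcription factor of red pulp macrophages, was at least 38.67-fold lower in testis. Aif1, known as a macrophage gene, went the other way, at 10.51, 10.65, 10.46 and 10.37 in the testes and 8.88, 9.03, 8.94 and 8.85 in the spleens (1.57, SE 0.11, adjusted p 0.000504).

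Granulocyte genes were lower in testis for 14 of 17 (median -3.83), led by S100a8, an abundant calcium-binding protein of neutrophils. Its levels were 4.35, 4.18, 4.31 and 4.25 in the testes, not above background, against 12.96, 12.92, 12.71 and 13.54 in the spleens, at least 337.7-fold lower. Lactoferrin (Ltf) was at least 117.7-fold lower. Platelet and megakaryocyte genes were lower for 10 of 11 (median -3.37), for example the platelet chemokine Ppbp, at least 42.43-fold.

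Erythroid genes were lower in testis for 13 of 17 (median -2.40), and of all lists its median difference varied most between animals (SD 0.79, n = 4). Its median level was 4.66, 4.77, 4.49 and 4.79 in the testes and 6.80, 8.46, 6.98 and 9.07 in the spleens, so replicates 2 and 4 had more of it than replicates 1 and 3. Klf1, the erythroid master regulator, was at 4.55, 4.43, 4.46 and 4.53 in the testes, against 7.28, 8.63, 7.59 and 9.83 in the spleens. In the B cell list the order was the reverse, with medians of 4.56, 4.47, 4.43 and 4.44 in the testes and 9.75, 9.15, 9.65 and 8.94 in the spleens. Hemgn, a nuclear protein of blood progenitors, was higher in testis (1.68, SE 0.27, adjusted p 0.0324). That call was lost without replicate 1 (1.39, adjusted p 0.175), without replicate 3 (1.51, adjusted p 0.127) and without the pairing (adjusted p 0.102).

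Of 20 genes of spleen stroma and endothelium 14 were lower in testis and none was higher (median -1.67). Fcna, a ficolin that binds microbial sugars, was at least 76.82-fold lower. Among chemokines that place lymphocytes in the white pulp, Ccl19 was at 5.04, 4.82, 5.06 and 5.02 in the testes and 11.41, 10.91, 11.36 and 10.48 in the spleens (-6.06, SE 0.16), and Cxcl13 was at least 32.32-fold lower. Collagen gene Col1a1 (-0.18) and the endothelial receptor gene Kdr (0.18) were among the 6 that did not pass.

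Genes of antigen presentation were lower in testis in both MHC classes. All 12 tested class II genes were lower (median -5.49), and their summed level was 1.28 to 1.53% of spleen. H2-Aa, a class II chain, was at 4.51, 4.91, 4.67 and 4.63 in the testes and at 11.71, 12.11, 11.67 and 11.71 in the spleens (-7.12, SE 0.11, adjusted p 2.89e-11). Ciita, the co-activator that switches class II genes on, was at least 31.11-fold lower. Of 14 class I genes, which most cell types use, 11 were lower (median -3.94) at a summed level of 17.2 to 28.2% of spleen. In testis 8 or 9 of the 14 were detected, and the sum was carried by the chaperone genes Pdia3 and Calr (10.22 and 9.57 on average) and by B2m. B2m, the light chain of all class I molecules, was at 8.90, 8.90, 8.94 and 8.96 in the testes, well above background, against 13.33, 12.90, 13.27 and 12.94 in the spleens (-4.18, SE 0.12). Calr, a chaperone of the endoplasmic reticulum, was the only member higher in testis (2.46, SE 0.18).

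Interferon-stimulated genes were lower for 21 of 26 (median -3.13), and chemokines, interleukins and their receptors for 22 of 26 (median -3.26), with none higher in either list. The antiviral gene Rsad2 (viperin) was not above background in the testes, at 4.37, 4.52, 4.42 and 4.57, and was at 11.68, 12.83, 11.94 and 12.82 in the spleens, at least 205.2-fold lower. Irf1, an interferon regulatory factor, differed by -5.67.

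The PU.1 motif AGGAAGT, named for the transcription factor of myeloid and B cells, was present in 7.85% of promoters of genes higher in testis, 12.7% of genes lower in testis, 9.13% of all tested genes and 9.57% of all windows. The GATA motif AGATAA differed less, at 8.02% of genes higher in testis, 6.74% of genes lower in testis and 6.83% of tested genes. The following 4 stretches, chosen after the matches were known, hold AGGAAGT or its reverse complement in capitals. They belong to Cd79a, to the Fc receptor gene Fcgr4, to the lysozyme gene Lyz2 and to Klhl6, a gene of B cells. They lie at chr7:24897422-24897468 (plus strand), chr1:171018882-171018928 (plus), chr10:117282346-117282392 (minus) and chr16:19983096-19983142 (minus), with matches starting at -55, -24, -100 and -73. H2-Aa at chr17:34287852-34287920 on the minus strand is shown because its capitals mark, from left to right, matches of GTTGCC, TGACGTCA and CCAAT in an order known from class II promoters, the X, X2 and Y boxes. They start at -82, -74 and -48, and so the RFX arm is present in a gene that was low in testis.
Cd79a: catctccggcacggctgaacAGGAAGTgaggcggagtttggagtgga
Fcgr4: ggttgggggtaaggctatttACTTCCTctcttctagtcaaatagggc
Lyz2: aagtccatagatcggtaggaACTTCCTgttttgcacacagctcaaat
Klhl6: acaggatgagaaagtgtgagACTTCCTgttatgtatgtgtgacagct
H2-Aa: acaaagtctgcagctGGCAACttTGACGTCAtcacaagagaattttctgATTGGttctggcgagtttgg

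Many proteins have a germ-cell form and a form used elsewhere, and several of the common forms are encoded on the X chromosome, which is silenced in meiosis. Of 39 such gene pairs 27 germ-cell members were tested, and 26 of them were higher in testis while none was lower. Among all genes 21.8% were higher and 27.1% lower. The germ-cell members were chosen as genes of the testis. Several, such as Tuba3a, Papolb and Smc1b, passed the detection filter only through testis, so their count is a description. In 17 pairs both members were tested, and there the germ-cell member was higher in 16 (median 6.05) and the common member was lower in 11 (median -2.29), higher in 2 and past neither line in 4.

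Cohesin gave a pair in which both members moved far. Smc1b was at 9.82, 9.64, 9.38 and 9.66 in the testes and not above background in the spleens, at 4.49, 4.62, 4.64 and 4.43, at least 30.08-fold higher. The X-linked Smc1a was at 6.32, 6.63, 6.23 and 6.43 in the testes, against 10.52, 10.60, 10.64 and 10.80 in the spleens (-4.24, SE 0.12). In energy metabolism Gapdhs differed by 7.52 and Gapdh by -2.29, Cox8c by 8.21 and Cox8a by -3.01, and Cox6b2 by 3.51 and Cox6b1 by -3.04. Among chaperones and the cytoskeleton Hspa2 differed by 5.79 and Hspa8 by -2.55, and Tubb4b by 2.58 and Tubb5 by -3.0.

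Not every common member was lower. Ybx3 (5.43) and Papola (1.91) were higher in testis beside their germ-cell partners Ybx2 (8.53) and Papolb (at least 86.95-fold higher). Ldha (1.13), Hspa1a (-0.29), Tuba1a (-1.10) and Nxf1 (-0.40) passed in neither direction. Of the 9 common members that lie on the X chromosome 8 were lower in testis (median -3.18), the exception being Cetn2 (-0.58, or -1.37 and called lower on the deposited normalized values, adjusted p 0.0458), against 9 lower and 3 higher of 17 on autosomes (median -1.32). Among all tested genes of the X chromosome 36.7% were lower, and among all tested genes 27.1%. The part of X silencing in these differences was not tested.

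**Figure D3:**
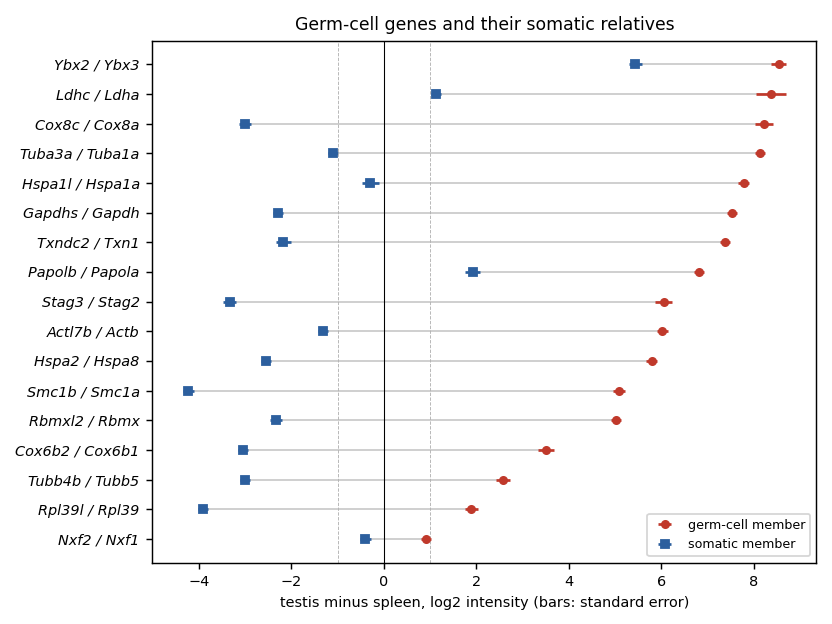
Testis minus spleen difference (log2) of the germ-cell member (red circle) and the common, somatic member (blue square) of the 17 gene pairs with both tested, 1 pair per row, with bars for the standard error. In 11 pairs the points were called on opposite sides of the dotted 2-fold lines, for example Smc1b at 5.08 and Smc1a at -4.24.

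The SMC5/6 complex, a ring that holds DNA during repair and replication and the subject of the series, was higher in testis in 3 of the 5 members tested of 9 listed (median 1.37). Eid3, an alternative form of its NSE4 subunit, was at 11.23, 11.20, 11.45 and 11.27 in the testes and not above background in the spleens, at 4.23, 4.34, 4.23 and 4.30. It was at least 95.33-fold higher (difference 7.01, SE 0.11, adjusted p 2.89e-11). Smc5 was at 8.54, 8.37, 8.99 and 8.46 in the testes, against 6.06, 6.55, 6.16 and 5.62 in the spleens (2.49, SE 0.17).

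Smc6 itself, the gene mutated in the series, was at 7.62, 7.86, 7.87 and 7.97 in the testes and at 6.71, 6.27, 6.29 and 6.57 in the spleens. The groups did not overlap, and the difference was 1.37 (SE 0.14, adjusted p 0.0255). The call beyond 2-fold was lost without replicate 2 (1.30, adjusted p 0.1), replicate 3 (1.30, adjusted p 0.101) or replicate 4 (1.36, adjusted p 0.0609), and in the +/+ animals alone (1.25, adjusted p 0.256). It was also lost on the deposited normalized values (1.16, adjusted p 0.255) and with an offset of 50 (1.10, adjusted p 0.448). With no detection filter the adjusted p was 0.0556. The probe's place relative to the mutation was not analysed here, so a level in one tissue or the other is no test of the genotype labels. Nsmce1, a RING subunit, differed by 0.90 (SE 0.11) and did not pass the call, but with scaling alone it did (1.54, adjusted p 0.000934). Nsmce2, the SUMO ligase of the complex, had 3 probes that differed by 0.10 (SE 0.15), 0.63 and 1.34, of which only the last passed (adjusted p 0.0138).

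Among the other SMC complexes, none of 15 tested cohesin and condensin genes of dividing cells was higher and 6 were lower (median -0.90), Smc1a and Stag2 (-3.33) most of all. In homologous recombination 3 of 16 genes were higher, 1 was lower and 12 passed in neither direction (median 0.63), against 21.8% higher and 27.1% lower of all genes. The calls of Fancd2 and Rad51ap1 (higher) and of Brip1 (lower) were lost in some alternative fits.

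Of 16 genes of mitotic division 14 passed neither line (median 0.21). Aurka, a spindle kinase, was higher in testis (1.85, SE 0.19) and Cenpa, the histone of centromeres, was lower (-3.89, SE 0.13). DNA replication genes were lower for 15 of 31 (median -0.95). The licensing factor gene Cdt1 was at 5.73, 5.29, 5.09 and 5.46 in the testes and 9.16, 9.34, 9.03 and 9.78 in the spleens (-3.94, SE 0.15), and helicase genes Mcm2 (-3.89), Mcm4 (-3.86) and Mcm6 (-3.26) were lower too. The median level of the list was 6.80, 6.83, 6.68 and 6.91 in the testes and 7.98, 8.32, 8.25 and 8.85 in the spleens. Spleen replicate 4 was the highest of the spleens here, as in the erythroid list.

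Genes often taken as constant were not. Of 9 tested reference genes 8 were lower in testis and 1 was higher (median -2.98), against 27.1% and 21.8% of all genes. Hprt was at 7.89, 7.85, 8.10 and 7.98 in the testes, against 10.95, 10.83, 11.03 and 10.93 in the spleens (-2.98, SE 0.11). Gapdh differed by -2.29 and Tfrc, the transferrin receptor, by -4.29, while Tbp, the TATA-binding protein, was higher at 10.10, 10.16, 9.93 and 10.09 in the testes against 7.64, 7.34, 7.38 and 7.48 in the spleens (2.61, SE 0.11). Actb differed least of the 9 (-1.32, SE 0.11, adjusted p 0.0235). Its call beyond 2-fold was lost without replicate 1 (-1.27, adjusted p 0.0927), without replicate 3 (-1.27, adjusted p 0.0893) and with scaling alone (-1.21, adjusted p 0.107). It was also lost in the +/+ animals alone (-1.31, adjusted p 0.143) and with all 24 arrays normalized together (-1.23, adjusted p 0.0823). The same held on the deposited normalized values (-0.92). Rplp0 lost its call with scaling alone (-1.22, adjusted p 0.101).

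Ribosomal protein genes were lower in testis for 30 of 43 and higher for none (median -1.77, or -1.33 when arrays were only scaled to one another). They ranged from the X-linked Rps4x (-4.59, SE 0.12) to Rps20 (-0.22, SE 0.11). Proteasome genes did not move as a group, with 4 higher, 6 lower and 19 past neither line, and a median of -0.36 that turned to 0.10 with scaling alone. Psme4, the PA200 activator that spermatids use for histone removal, was among the higher ones (1.94, SE 0.12), and the core subunit gene Psma7 was among the lower ones (-2.21, SE 0.12).

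The X chromosome had a larger share of genes lower in testis than any single autosome, a difference that was not tested. Of its 346 tested genes 24.9% were higher and 36.7% were lower, with a median of -0.70 (SD over the 4 animals 0.0434), while single autosomes had 18.0 to 24.7% higher and 22.2 to 31.5% lower. With scaling alone the shares for X were 26.9% higher and 31.5% lower, against 25% and 21.6% for all genes. Without the minimum fold they were 33.8% and 56.4%, against 36.7% and 49%.

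The X genes included both extremes. High in testis were genes of spermatids such as the histone variant gene H2al1e (7.96), Tsga8 (7.37) and Cypt3 (7.26). Low were genes of blood cells such as Arhgap4 (at least 88.0-fold lower), the B cell kinase gene Btk (at least 55.7-fold) and the heme enzyme gene Alas2 (-5.33), and also common genes such as Rps4x and Smc1a. On the Y chromosome 7 of 10 tested genes were higher, including Gm20815 (7.54) and Ssty2 (at least 14.28-fold). H2al1e and the Y genes Gm20815 and Ssty2 belong to families of near-identical copies, so their probes may report several genes at once.

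**Figure D4:**
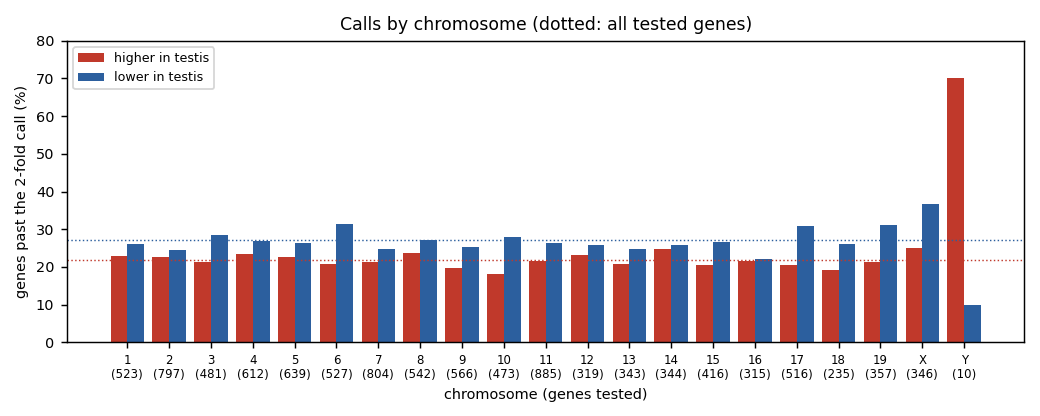
Share of tested genes (percent, from 0) called higher (red) and lower (blue) in testis beyond 2-fold, by chromosome. The X chromosome has the longest blue bar of all chromosomes with more than 10 genes, 36.7%, while its red bar of 24.9% lies just above the autosomal range.

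Probes of the same gene were seldom called in opposite directions. Of 2494 genes with several tested probes, 34 (1.36%) had 1 probe called higher and another called lower, both beyond 2-fold. Genes with a called probe beside an uncalled one were not counted. Trim36, a ubiquitin ligase of the acrosome, had probes at 7.47, 7.16 and -1.45. Those at 7.47 and 7.16 were detected in 3 and 1 of 4 spleens. The probe at -1.45 was not above background in any testis, which makes it at least 2.63-fold lower. Atxn3, a deubiquitinase, had 5.81, -0.92 and -1.55, the adaptor gene Sh3kbp1 had 2.23, 0.83, -3.69 and -3.77, and the depalmitoylase gene Lypla1 had 4.08 and -1.49. The Atxn3 probe at 5.81 was detected in 1 of 4 spleens and that at -0.92 in no testis. The Sh3kbp1 probe at 0.83 was detected in no spleen, and the Lypla1 probe at -1.49 in 3 of 4 testes. Which transcripts each probe meets was not analysed here.

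Lists for tissues that lie next to these organs were small. Of 10 tested pancreas genes 1 was higher and 1 was lower, the elastase gene Cela1, at 4.75, 4.24, 5.06 and 4.38 in the testes and 7.62, 8.44, 7.42 and 8.65 in the spleens (-3.42, SE 0.29). Of 8 adipose genes 2 were higher and 2 were lower. Car3, a carbonic anhydrase of fat and muscle, was at 4.38, 4.51, 4.37 and 4.41 in the testes, against 5.07, 8.16, 8.18 and 7.94 in the spleens, so spleen replicate 1 stood apart. None of 3 epididymis genes passed. Their part in the results was not tested.

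The 4 animals were alike in testis and less so in spleen. Sums are again of deposited intensities that were not normalized between arrays. The list of spermatid chromatin summed to 0.221, 0.309, 1.23 and 1.35% of its control testis level in the spleens of replicates 1 to 4, and that of the sperm tail to 0.0943, 0.115, 0.282 and 0.198%. Replicates 3 and 4, the +/- animals, thus had more summed signal of these lists in spleen, as Smcp and Prm1 show. The median levels of the spermatid chromatin list did not split this way, at 4.546, 4.448, 4.605 and 4.462 in the spleens of replicates 1 to 4. Only 3 of its 8 tested members were detected in each of these spleens, so its sum rests on few genes. In the mutant spleens the spermatid chromatin list ranged from 0.377 to 4.48%. The part of this summed signal in the results was not tested. With the +/+ animals alone 2944 probes were higher and 3227 lower beyond 2-fold.

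**Figure D5:**
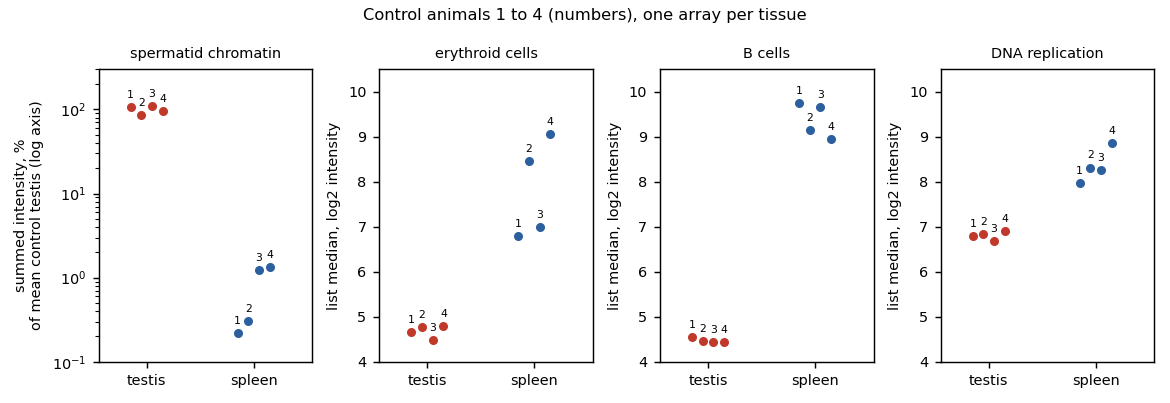
Levels of 4 lists on each array of control animals 1 to 4 (numbers), testes in red and spleens in blue. The first panel gives the summed deposited intensity, not normalized, of spermatid chromatin genes as a percent of the mean control testis (log axis). The others give the median normalized log2 intensity of the list. The erythroid medians of the spleens range from 6.80 to 9.07, while those of the testes stay between 4.49 and 4.79.

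A tissue difference that depended on the controls' genotype was called for 2 probes (0.014%), both of Cfap69, a gene of the sperm flagellum, with 412 probes at an unadjusted p under 0.05. The probe with the larger effect was at 11.19, 11.28, 6.18 and 6.80 in the testes, with both +/- animals low, and at 4.73, 4.54, 4.55 and 4.34 in the spleens. The 4 homozygous mutant testes were at 10.53, 10.52, 10.57 and 11.06, near the +/+ and not the +/- animals. Why the +/- testes were low was not tested. On the other probe the mutant testes lay between 8.74 and 9.45, against 9.60 and 9.13 in the +/+ and 6.35 and 6.63 in the +/- testes. The interaction was -4.56 (SE 0.31, adjusted p 0.00789, limma), and that of the other probe was -2.93 (SE 0.26, adjusted p 0.0273). Without replicate 1 no probe was called and without replicate 3 there were 4. The test compares 2 animals with 2, and with 1 animal left out a lone animal of 1 genotype is assumed to vary like the others.

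In the Smc6 mutants the contrast was close to that of the controls. A fit of the mutant arrays alone called 3121 probes higher in testis (21.8%) and 3449 lower (24.1%). Of the controls' higher calls 3001 were shared, which is 95.5% of the controls' and 96.2% of the mutants' list. Of the lower calls 3288 were shared (93.1% and 95.3%), and no call of the controls had the opposite sign in the mutants. The test of whether the tissue difference itself depended on the mutation called no probe (0%, limma, smallest adjusted p 0.146), with 380 probes at an unadjusted p under 0.05.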

How the data were processed

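Levels were measured on Illumina MouseRef-8 bead arrays. Intensity values were deposited per probe with a detection p-value, exported with GenomeStudio (version 2011.1) per the submitters' processing notes. The deposited intensities used were not normalized but already background-subtracted, since 23.7 to 24.7% of values on these 8 arrays lay below 0. Of the 25697 probes 23978 had 1 gene symbol, 0 had several and 1719 had none. Chromosomes were found by gene identifier for 23962 probes in RefSeq's gene table (GRCm38.p6).

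The 8 arrays were normalized together with neqc of limma 3.58.1 (R 4.3.3) with an offset of 16. This corrects the background from negative controls inferred from the detection p, normalizes by quantiles and takes log2. Probes with a detection p under 0.05 on at least 4 arrays were tested with the animal as a block, moderated by eBayes, with Benjamini-Hochberg adjustment over all 14327. The main call used treat with a minimum fold of 2, and a gene stood by its brightest tested probe. The samples are separate animals with 1 array per tissue, and this number limits the precision. No slide or scan date was used. Pairing comes from the mouse identifiers; the deviations of same-animal arrays from their group means correlated at -0.015, 0.056, 0.046 and 0.003. Fits by genotype or mutation used an interaction term. Alternatives, reported at the end, changed the block, normalization, offset, filter and animals. The fits were tested on simulated data.

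The members and gene lists were chosen with earlier results of these data known. Named genes were the 15 largest differences each way, up to 4 called genes per list with up to 2 in the other direction, all tested genes of the pairs, the SMC5/6 and the reference lists, genes called in an interaction, and the 8 genes with the most discordant probes. Outside this rule, Abcb1b, Akap4, Catsper1, Cd4, Ciita, Col1a1, Cst3, Izumo1, Kdr, Klf1, Mnd1, Msh5, Pdia3, Rfx2, Rps20, Star, Sycp1, the genes given only for the X and Y chromosomes and the promoters shown were chosen after their values were seen. In skeletal muscle, a list not described further, 1 of 7 genes was higher in testis and none was lower.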

Additional observations from a re-analysis of the deposited data

Results flagged for a closer look

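Among 138 groups of 4 values examined, 10 held 1 array far from the other 3, and chance alone flags about 1 in 20 groups. Testis replicate 2 had the highest median of the acrosome list, 10.72 against 10.55 to 10.57 in the other testes, and of Cabs1, 13.81 against 13.64 to 13.67. It also had the lowest Ybx2 (13.46 against 13.60) and Coro1a (4.42 against 4.55 to 4.56) and the highest Cd74 (6.34 against 5.74 to 5.83). Testis replicate 3 had the highest median of the ribosomal protein list, 10.56 against 10.20 to 10.24, and the lowest Cox8c, 12.84 against 13.19 to 13.20. Among the spleens, replicate 4 had the highest median of the meiotic list, 4.83 against 4.49 to 4.51. Spleen replicate 3 had the highest median of the T and NK cell list, 9.19 against 8.96 to 9.00, and spleen replicate 2 the highest H2-Aa, 12.11 against 11.67 to 11.71. All of these gaps were small beside the differences between the organs.

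The tissue difference of Cfap69 was smaller in the +/- than in the +/+ controls in both of its probes, by -2.93 and -4.56 in the interaction test, which rests on 2 animals of each genotype. The homozygous mutant testes, at 8.74 to 9.45 and 10.53 to 11.06 on these probes, lay near the +/+ testes.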

How the results depend on the processing

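Of the 200 named genes 177 kept their call and direction in every alternative that tested them, and none of the 188 called genes changed direction. Without the replicate block 5471 probes were higher and 6712 lower in testis, and 3143 and 3543 beyond 2-fold, so among the named genes the pairing changed only the call of Hemgn. Leaving out 1 animal gave 3055 to 3074 higher and 3368 to 3422 lower beyond 2-fold. Scaling alone moved the median over all probes to 0.04, from -0.19, and gave 3579 higher and 2782 lower. With detection on all 8 arrays, which leaves 8638 probes and drops those of 1 organ, 2675 were higher and 4576 lower, and 1312 and 2382 beyond 2-fold, so that 35.5% of the calls beyond 2-fold were higher, compared with 47.1%. Tissue by genotype gave 0 calls on the deposited normalized values and 0 to 4 when 1 animal was left out, an alternative added after seeing the data. Tissue by mutation gave 1 call with the animal as a random block. Without a minimum fold 56.4% of X genes were lower. Nxf1 turned to 0.0324 with scaling alone, and Nsmce2 lay between -0.0372 (without replicate 2) and 0.248 (without replicate 3) with 1 animal left out, neither of them called. The proteasome median turned to 0.10 with scaling alone, and the adipose median to -0.10 without replicate 1 and the pancreas median to -0.04 without replicate 3. The mitotic median turned to -0.07 without a detection filter and to -0.09 with a stricter one, and with detection on all 8 arrays that of the spermatogonia list turned to -0.03 and that of the Leydig list to -5.39, which is the value of Hsd11b1 alone, from a main value of 1.98. The causes of these shifts were not tested. Probes near background limit the size of a difference, so that folds against a dim organ are bounds.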
